A study of Mus musculus with 8 samples.

Results

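The distal nephron, from the thick ascending limb of the loop of Henle through the distal convoluted tubule to the collecting duct, adjusts how much sodium and potassium leaves in the urine. Sodium enters its cells from the tubule through NKCC2 (*Slc12a1*) in the thick ascending limb, through NCC (*Slc12a3*), the thiazide target, in the distal convoluted tubule, and through the epithelial sodium channel ENaC (*Scnn1a*, *Scnn1b* and *Scnn1g*) in the cells that follow. Potassium leaves through ROMK (*Kcnj1*), and the WNK kinases act through the kinase SPAK (*Stk39*) to switch NKCC2 and NCC on, while the aldosterone-responsive kinase SGK1 (*Sgk1*) keeps ENaC at the cell surface. Salt-inducible kinases (SIKs), named for a member of the family that was found in adrenal glands under a high-salt diet, are inhibited by cAMP and PKA signaling.

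These 10 genes were chosen by name from the 55401 genes listed for each kidney, and all 10 were among the 14326 genes that passed the filter on low counts. RNA-Seq was performed on whole kidneys of 8 mice, 4 controls and 4 SIK mutants, and the comparison asks whether loss of SIKs in the nephron changes the RNA of these genes. Controls had the labelled genotype SIK1f/f;SIK2f/f,SIK3f/f, meaning that loxP-flanked alleles of the 3 SIK genes were present and Cre was not. Mutants carried the same alleles with Six2-Cre, which is active in nephron progenitors and is inherited by the tubule cells that descend from them as far as the distal convoluted tubule. The collecting duct, where much of ENaC is made, arises from the ureteric bud, outside the Six2 lineage. The labels give both *Sik1* alleles as floxed, whereas the study's text describes survivors with 1 floxed and 1 wild-type *Sik1* allele, so the group is called SIK mutant here. Controls were Cre-negative littermates and both sexes were used in the study, but neither age, sex, litter nor batch was given for a kidney.

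Depth was 10179648 to 10925100 expected counts per kidney, so that 3 counts, taken as the limit of detection, equalled 0.275 to 0.295 CPM (counts scaled to the normalised library size). *Sik3* was at 41.4, 39.7, 43.1 and 33.7 CPM in mutants 1 to 4 and at 58.6 to 66.5 CPM in controls, a log2 fold change of −0.67 (edgeR FDR 0.0697). *Sik2* was −0.44 on the same scale (edgeR FDR 0.794), with mutant 3 at 9.3 CPM inside the control range of 7.97 to 9.95 CPM. *Sik1* was 0.31 (edgeR FDR 0.601), at 43.4 to 54.1 CPM in mutants and 36.8 to 43.1 CPM in controls. Controls 3 and 4 stood apart from the other 6 kidneys on the first principal component (36.27 and 39.49 against −26.94 to 1.49, with 40.9% of the variance). They were also the kidneys with *Xist* (260.0 and 298.0 CPM) and without reads of the Y-linked genes *Ddx3y* and *Kdm5d*. Genotypes were therefore compared in all 8 kidneys and again in the 6 that held Y-linked reads, which were controls 1 and 2 and the 4 mutants. Since no mutant lacked Y-linked reads, sex cannot be told apart from other differences between these 2 controls and the rest. Bulk RNA cannot tell fewer cells of a type from less RNA per cell.

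All segments were represented. *Umod*, the urinary protein made by the thick ascending limb, was at 2212 to 3134 CPM in the 8 kidneys, and *Calb1*, a calcium-binding protein of the distal convoluted tubule, was at 380.8 to 668.9 CPM. *Aqp2*, the vasopressin-regulated water channel of principal cells, was at 163.2 to 563.2 CPM. The 10 transport genes were thus measured in tissue where their own cell types could be seen.

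Across all kidneys the length-scaled level (TPM, which scales counts by transcript length and library total; mean of 8 kidneys) ranged from *Slc12a3* at 262 TPM and *Slc12a1* at 191 TPM to *Stk39* at 16.6 TPM and *Scnn1g* at 14.8 TPM. Between these lay *Wnk4* and *Wnk1*, both at 129 TPM, then *Kcnj1* at 86.7 TPM, *Scnn1a* at 57.6 TPM, *Sgk1* at 30.2 TPM and *Scnn1b* at 28.4 TPM. The 3 ENaC subunits, which assemble into 1 channel, therefore differed in RNA level, with the alpha subunit ahead of beta and beta ahead of gamma.

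**Figure D1:**
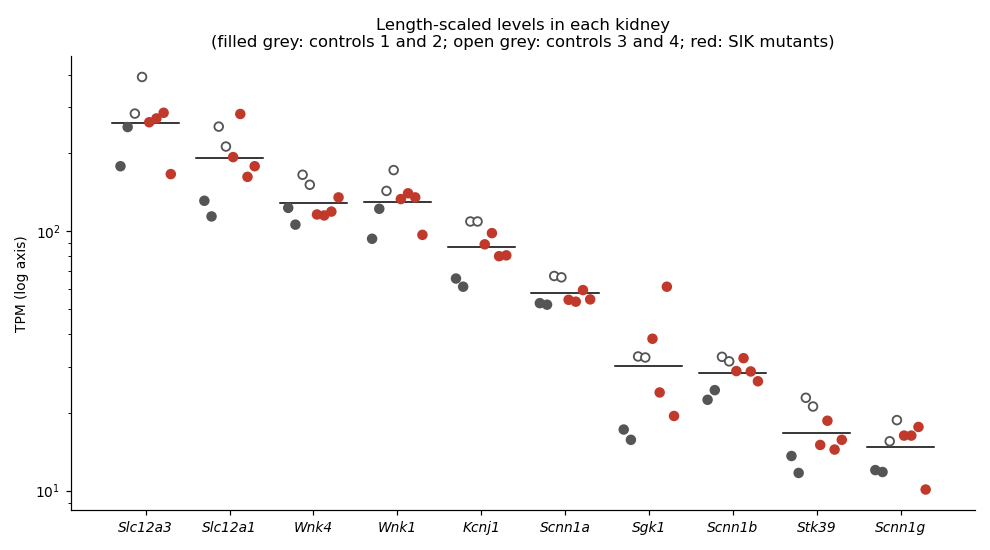
TPM of each transport gene on a log axis, 1 point per kidney, ordered by the mean of the 8 kidneys (black line). Both cotransporters, *Slc12a3* and *Slc12a1*, lie highest and *Scnn1g* lowest. *Sgk1* spans the widest range, from 15.7 to 61.1 TPM.

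Some neighbours in this order did not differ beyond their spread. *Slc12a3* exceeded *Slc12a1* in 6 of 8 kidneys, *Wnk4* exceeded *Wnk1* in 3 of 8, *Sgk1* exceeded *Scnn1b* in 4 of 8, and *Stk39* exceeded *Scnn1g* in 5 of 8. *Scnn1a* exceeded *Sgk1* in 7 of 8 kidneys. The steps from *Slc12a1* to *Wnk4*, from *Wnk1* to *Kcnj1*, from *Kcnj1* to *Scnn1a* and from *Scnn1b* to *Stk39* were seen in 8 of 8 kidneys. The order depends on estimated mean transcript lengths, which for *Wnk4* were 1341 to 1670 bases where its longest annotated transcript has 4117. In CPM, which is not scaled by length, *Wnk4* (mean 155.4) lay below *Kcnj1* (227.9) and *Scnn1a* (180.0). *Wnk1* (336.1 CPM) lay above both.

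None of the 10 genes passed an FDR of 0.05 for genotype (edgeR quasi-likelihood F test with Benjamini-Hochberg adjustment over all genes), and none of the 14326 genes tested did, a background of 0.0%. DESeq2 called 67 of all genes and 0 of these 10. At an unadjusted p under 0.05 there was 1 transport gene, against 6.36% of all genes. The groups overlapped for each of the 10 genes, where 4.03% of all genes had groups that did not overlap. The median log2 fold change was −0.08, and 2 of 10 were higher in mutants, against 49.2% of all genes. The study itself reported dysregulated genes in mutant kidneys at an FDR under 0.05 with a fold change cutoff, *Cyp27b1* among the upregulated ones.

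Among the cotransporters, *Slc12a3* (chromosome 8, 94329201 to 94366214, GRCm38) was at 561.1, 755.6, 747.9 and 1030.7 CPM in controls 1 to 4 and at 676.1, 666.3, 729.5 and 483.7 CPM in mutants 1 to 4. The highest value was control 4 and the lowest was mutant 4, and the other 6 kidneys overlapped. The log2 fold change was −0.28 (SE 0.192, 95% CI −0.708 to 0.155), with an edgeR FDR of 0.863. Without control 1 its log2 fold change was −0.40, without control 4 it was −0.11 and without mutant 4 it was −0.16, so the size of the difference rested on single kidneys of both groups.

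*Slc12a1* (chromosome 2, 125152505 to 125230002) was at 630.1, 527.0, 1013.3 and 851.2 CPM in controls 1 to 4 and at 761.2, 1073.5, 634.6 and 790.3 CPM in mutants 1 to 4. Controls 3 and 4 and mutant 2 were high and controls 1 and 2 low. The log2 fold change was 0.11 (SE 0.225, 95% CI −0.394 to 0.613), with an edgeR FDR of 0.959. It was −0.03 without control 2 and −0.05 without mutant 2.

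**Figure D2:**
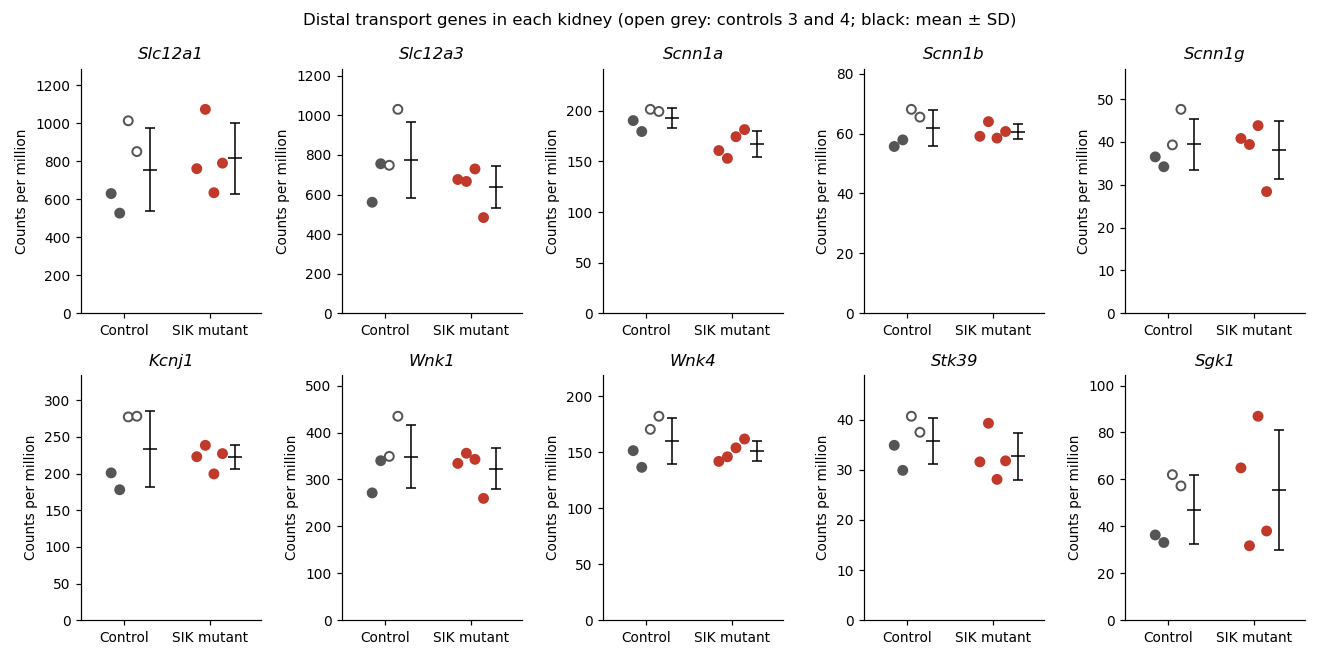
CPM of the 10 transport genes in each kidney, with 1 point per mouse and the mean ± SD of each group (n = 4) in black; axes start at 0. Groups overlap in each panel. Controls 3 and 4 (open) lie above controls 1 and 2 in 9 of 10 panels, *Slc12a3* being the exception.

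The ENaC alpha subunit *Scnn1a* (chromosome 6, 125320659 to 125344943) was the transport gene with an unadjusted p under 0.05. Its levels were 190.3, 179.5, 201.4 and 199.3 CPM in controls 1 to 4 and 160.7, 153.0, 174.4 and 181.4 CPM in mutants 1 to 4. The lowest control, at 179.5 CPM, fell below mutant 4 alone. The means were 193 ± 9.97 CPM in controls and 167 ± 12.9 CPM in mutants (SD, n = 4 each), a difference of −13.1%. The log2 fold change of −0.20 (SE 0.0886, 95% CI −0.402 to −0.00422) had an edgeR p of 0.0462 and an FDR of 0.775, and the exact permutation test (two-sided, 70 assignments) gave p = 0.0571, where the smallest possible p is 0.0286. Its direction held under each alternative run, with log2 fold changes from −0.24 to −0.09, and its unadjusted p passed 0.05 again with upper-quartile factors, the higher count minimum, DESeq2, and without control 2 or mutant 4.

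For the other subunits the intervals spanned 0. *Scnn1b* (chromosome 7, 121865038 to 121918514) was at 55.7 to 68.1 CPM in controls and at 58.5 to 64.0 CPM in mutants, with a log2 fold change of −0.03 (95% CI −0.222 to 0.164). *Scnn1g* (chromosome 7, 121734479 to 121768475) was at 34.2 to 47.6 CPM in controls and 28.4 to 43.8 CPM in mutants, with a log2 fold change of −0.05 (95% CI −0.386 to 0.287). *Scnn1b* and *Cog7*, which lies on the other strand, overlap, and *Cog7* reached 36.0 CPM. Whether counting used strand is not given in the sources used here, so some reads of 1 may have been counted for the other.

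The ratio between subunits within a kidney does not depend on library scaling. *Scnn1b* to *Scnn1a* in TPM was 0.424, 0.467, 0.488 and 0.475 in controls 1 to 4 and 0.531, 0.605, 0.485 and 0.483 in mutants 1 to 4. Mutants 1 and 2 lay above the controls and mutants 3 and 4 within their range. The log2 ratio was higher by 0.18 in mutants (exact permutation test, two-sided, p = 0.0857, 0.3428 after Benjamini-Hochberg adjustment over 4 ratios). *Scnn1g* to *Scnn1a* differed by 0.15 (exact permutation p = 0.4, adjusted 0.5333), with mutant 4 at 0.185 below the controls and the other mutants at 0.297 to 0.305 above them.

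**Figure D3:**
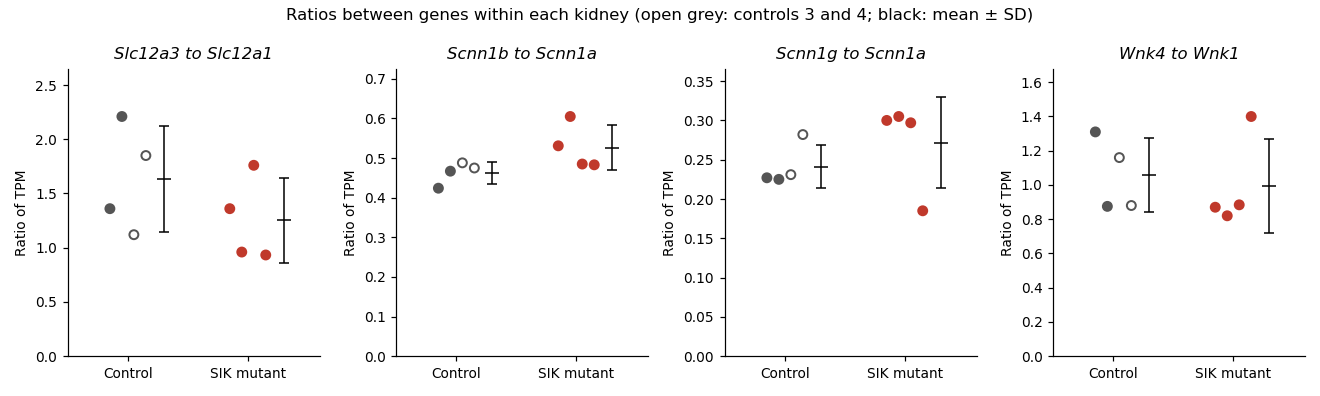
Ratio of TPM between pairs of transport genes within each kidney, with the mean ± SD of each group (n = 4) in black. The *Scnn1b* to *Scnn1a* ratio is 0.424 to 0.488 in controls and 0.483 to 0.605 in mutants; groups overlap in all 4 panels.

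*Slc12a3* to *Slc12a1*, which sets the distal convoluted tubule transporter against that of the thick ascending limb, was 1.12 to 2.21 in controls and 0.933 to 1.76 in mutants. Its log2 ratio was −0.39 in mutants relative to controls (exact permutation p = 0.2286, adjusted 0.4572). *Wnk4* to *Wnk1* ranged from 0.875 to 1.31 in controls and from 0.82 to 1.4 in mutants, with a log2 difference of −0.10 (exact permutation p = 0.7143) that was 0.01 without control 1. No ratio separated the genotypes.

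*Kcnj1* (chromosome 9, 32372493 to 32399197), which encodes ROMK, was at 201.0, 178.0, 277.4 and 278.3 CPM in controls 1 to 4 and at 223.1, 238.6, 199.6 and 227.3 CPM in mutants 1 to 4. Mutants lay between the lower and the higher pair of controls, except that mutant 3 was just below control 1. The log2 fold change was −0.07 (SE 0.154, 95% CI −0.419 to 0.273), with an edgeR FDR of 0.961.

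For the WNK and SPAK kinases the intervals also spanned 0. *Wnk1* (chromosome 6, 119923969 to 120038672) was at 271.4 to 434.9 CPM in controls and 259.7 to 356.0 CPM in mutants, with a log2 fold change of −0.11 (95% CI −0.46 to 0.239). *Wnk4* (chromosome 11, 101260567 to 101277409) was at 136.4 to 182.0 CPM in controls and 141.7 to 161.7 CPM in mutants, with a log2 fold change of −0.09 (95% CI −0.323 to 0.151). *Stk39* (chromosome 2, 68210445 to 68472268), which encodes SPAK, was at 29.9 to 40.7 CPM in controls and 28.1 to 39.3 CPM in mutants, with a log2 fold change of −0.13 (95% CI −0.416 to 0.158). For *Wnk4* the interval leaves room for a fall of at most 0.323 on the log2 scale, the narrowest lower bound among these kinases.

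*Sgk1* (chromosome 10, 21882184 to 21999903) was the most variable transport gene. Its levels were 36.3, 33.1, 62.0 and 57.2 CPM in controls 1 to 4 and 64.9, 31.7, 86.9 and 38.0 CPM in mutants 1 to 4. Mutants 1 and 3 were the highest kidneys and mutant 2 the lowest, so the mutants alone spanned the whole range. The coefficient of variation was 46.0% in mutants and 30.9% in controls, against 4.11% and 9.58% for *Scnn1b*. The log2 fold change was 0.23 (SE 0.327, 95% CI −0.503 to 0.962; edgeR FDR 0.943), and it was −0.07 without mutant 3.

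RSEM also estimates a mean transcript length for each gene from the share it gives to each annotated transcript, and these lengths were picked out with their values known, so they are described without a test. *Wnk4* was at 1341, 1440, 1341 and 1530 bases in controls 1 to 4 and at 1569, 1670, 1648 and 1401 bases in mutants 1 to 4. *Sgk1* was at 2141, 2227, 2276 and 2128 bases in controls and at 2082, 1731, 1797 and 2151 bases in mutants. *Wnk1*, with 26 annotated transcripts, was at 2860 to 2982 bases in controls and at 3002, 3136, 3051 and 2869 bases in mutants 1 to 4. In each of these genes 3 of the 4 mutants lay outside the control range, longer for *Wnk4* and *Wnk1* and, for *Sgk1*, shorter. The same held for *Slc12a1*, with mutants 2 to 4 at 4571 to 4596 bases below controls at 4605 to 4624 bases, although its length varied by only 1.15% of the mean. *Stk39* was at 2152 to 2668 bases in controls, a range that held the 4 mutants. For the remaining genes the length varied by at most 2.36% of its mean over the 8 kidneys, and *Scnn1g*, with 1 annotated transcript, had a constant 2991 bases. These lengths are model estimates from short reads, and no transcript was tested on its own. How often 3 of 4 mutants lie outside the control range over all genes was not counted.

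The 250 bases before each transcript start were read from RefSeq (GRCm38.p6) and matched 9 of the 10 genes by symbol. *Scnn1a* had no entry. A window of *Sgk1* is printed because glucocorticoid and mineralocorticoid receptors are its known regulators, and that of *Kcnj1* because it was the other gene with the receptor hexamer. Both windows lie inside the span of their gene, before an internal start, and hold 0 exon bases in GENCODE M21. Motifs searched on both strands were the receptor hexamer AGAACA, the palindrome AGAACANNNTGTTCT, which holds 2 of these hexamers, the cAMP response element TGACGTCA and the pentamer TGACG within it. In the sequences, capitals mark these matches, and both sequences are on the plus strand.
*Sgk1*, chr10:21993640-21993889: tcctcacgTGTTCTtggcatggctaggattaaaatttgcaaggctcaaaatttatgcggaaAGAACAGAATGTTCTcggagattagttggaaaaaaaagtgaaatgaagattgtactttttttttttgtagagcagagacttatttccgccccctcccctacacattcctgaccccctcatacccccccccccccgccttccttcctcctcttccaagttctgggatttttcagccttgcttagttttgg
*Kcnj1*, chr9:32393735-32393984: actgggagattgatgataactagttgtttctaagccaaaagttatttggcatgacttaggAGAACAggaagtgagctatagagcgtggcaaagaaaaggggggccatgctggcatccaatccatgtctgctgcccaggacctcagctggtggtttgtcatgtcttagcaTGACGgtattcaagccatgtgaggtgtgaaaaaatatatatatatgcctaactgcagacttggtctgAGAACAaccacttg

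The palindrome began 189 bases before this *Sgk1* start and was present in 3 of 32851 promoter windows of the same length (0.00913%). Of the 6 *Sgk1* windows only the printed window held it, so the window is not a random pick and the share is no test. The hexamer was present in 3 of the 6 *Sgk1* windows and 16.1% of all windows, and in *Kcnj1* it began 190 and 14 bases before the start. TGACG was present 81 bases before the *Kcnj1* start and in 1 *Sgk1* window, against 17.8% of all windows. TGACGTCA was in none of the windows of the 9 genes and in 1.55% of all windows. A match of letters is a description of the sequence and not a measured binding site.

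Other genes that respond to these receptors, or carry their signal, were examined as a list of 11, of which 10 were tested. At an unadjusted p under 0.05, 1 was higher and 0 lower, against 2.76% and 3.59% of all genes, and 0 passed an FDR of 0.05. The gene was *Fkbp5*, a receptor co-chaperone that glucocorticoids induce, at 40.3, 40.5, 25.5 and 15.6 CPM in controls 1 to 4 and 39.5, 58.3, 54.0 and 61.7 CPM in mutants 1 to 4. Its log2 fold change was 0.81 (exact permutation p = 0.0857, edgeR FDR 0.702), controls 3 and 4 being lowest and mutant 1 within the control range, and it was 0.41 without controls 3 and 4. *Nr3c1*, the glucocorticoid receptor, was at 70.4 to 73.1 CPM in controls and 76.4 to 81.6 CPM in mutants. Its log2 fold change was 0.14 (edgeR FDR 0.792), and the groups did not overlap, against 4.03% of all genes tested. *Zbtb16*, another glucocorticoid-induced gene, was at 0.395 to 0.528 CPM in controls and 0.866 to 1.26 CPM in mutants without overlap, too low to be tested in all 8 kidneys.

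*Tsc22d3*, the glucocorticoid-induced leucine zipper gene, was at 27.9 and 28.1 CPM in mutants 1 and 3, the same kidneys that were highest for *Sgk1*, and lower in the other 6, down to 18.4 CPM in mutant 2. *Per1*, a clock gene that aldosterone also induces, was at 16.3 CPM in mutant 1 and 17.0 CPM in control 4 and at 5.53 to 10.1 CPM elsewhere. *Prss8*, the protease that activates ENaC, was at 442.0 to 529.1 CPM in controls and 339.4 to 482.7 CPM in mutants (log2 fold change −0.27, exact permutation p = 0.0857, edgeR FDR 0.781). *Nr3c2*, the mineralocorticoid receptor, was at 8.10 to 18.7 CPM in controls and 11.5 to 13.1 CPM in mutants (log2 fold change −0.14). Without controls 3 and 4, its 2 highest kidneys, the log2 fold change turned to 0.33 (edgeR FDR 0.504). All mutants then lay above both remaining controls, against 10.3% of all genes. Of the 10 genes of the list that were tested, 3 had a log2 fold change above 0, against 49.2% of all genes, and 7 below it. Their median was −0.10. Without controls 3 and 4 this direction turned, with 9 of 11 above 0, against 51.7% of all genes, and a median of 0.10. At an unadjusted p under 0.05, 2 were then higher and 1 lower, against 6.4% and 4.74% of all genes.

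Of 15 regulators of the WNK, SPAK and NEDD4L steps, 14 were tested. In mutants 9 were higher, against 49.2% of all genes, and 5 lower, with a median log2 fold change of 0.03. At an unadjusted p under 0.05 there were 0 higher and 1 lower, against 2.76% and 3.59% of all genes, and 0 passed an FDR of 0.05. Without controls 3 and 4, 8 of 14 were higher, against 51.7% of all genes, with a median of 0.02. At an unadjusted p under 0.05 there were then 0 higher and 1 lower (*Wnk2*), against 6.4% and 4.74% of all genes. In 8 kidneys the lower gene was *Klhl3*, the adaptor that marks WNK kinases for degradation. Controls 1 to 4 were at 37.7, 39.6, 49.2 and 63.0 CPM and mutants 1 to 4 at 38.0, 33.6, 41.4 and 34.3 CPM. The log2 fold change of *Klhl3* was −0.37 (exact permutation p = 0.1429, edgeR FDR 0.777). Controls 3 and 4 were above all mutants, while controls 1 and 2 were within the mutant range, and the log2 fold change was −0.06 without controls 3 and 4. *Oxsr1*, the relative of SPAK, was at 36.8 to 40.9 CPM in controls and 39.7 to 46.6 CPM in mutants (log2 fold change 0.17, exact permutation p = 0.0571, edgeR FDR 0.794). *Ppp1r1a*, an inhibitor of the phosphatase that acts on NCC, was at −0.18, and *Wnk2* was at −0.32 on the same scale (edgeR FDR 0.888 and 0.915). With the 6 kidneys that held Y-linked reads these were 0.06 and −0.73 (edgeR FDR 0.881 and 0.431).

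Of 18 other distal channels and transporters, 16 were tested and 2 were higher and 0 lower at an unadjusted p under 0.05, against 2.76% and 3.59% of all genes, with 0 at an FDR of 0.05. These were *Slc12a2*, the NKCC1 cotransporter (log2 fold change 0.53, edgeR FDR 0.775), and *Slc9a4*, a sodium/proton exchanger at 1.88 to 5.33 CPM (0.71, edgeR FDR 0.758). Without controls 3 and 4 they were at 0.28 and 1.0. Of the 16 genes 11 were then higher, against 51.7% of all genes, with a median of 0.18. At an unadjusted p under 0.05 there were 4 higher and 0 lower, against 6.4% and 4.74% of all genes. *Kcnk1*, a potassium channel, was at 143.3 and 121.4 CPM in controls 3 and 4 and at 36.9 to 63.4 CPM in the other 6 kidneys. In those 6 kidneys *Kcnk1* was higher in all 4 mutants than in controls 1 and 2, as were 10.3% of all genes. Its log2 fold change was −0.58 in 8 kidneys (edgeR FDR 0.864) and 0.59 in the 6 (edgeR FDR 0.113, DESeq2 FDR 0.0104). *Kcnt1*, a sodium-activated potassium channel, was at 4.50 to 12.1 CPM in mutants and 8.12 to 17.5 CPM in controls (log2 fold change −0.79, edgeR FDR 0.781), and the log2 fold change was −0.23 without controls 3 and 4. *Kcnmb2* and *Kcnmb4*, subunits of the BK potassium channel, were at or under the detection limit in all 8 kidneys.

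**Figure D4:**
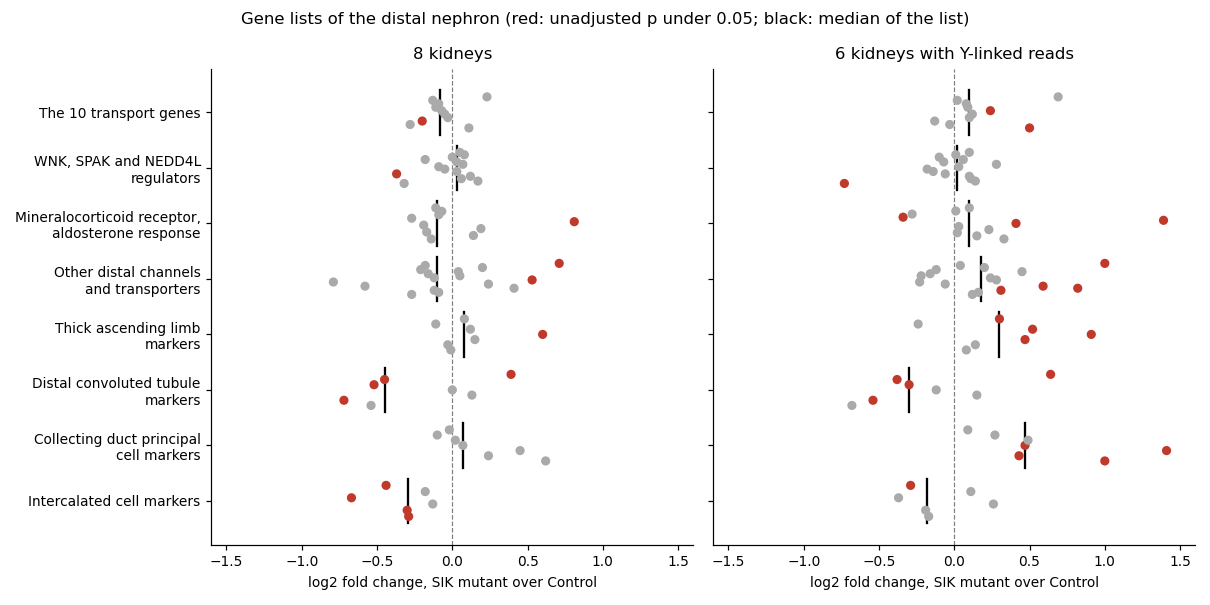
Log2 fold change of each tested gene (points; red for an unadjusted edgeR p under 0.05), with the median of each list in black, for 8 kidneys (left) and for the 6 that held Y-linked reads (right). The median of the transport genes is −0.08 on the left and 0.10 on the right. Distal convoluted tubule markers have medians of −0.45 and −0.30.

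Segment markers were set beside the transport genes. Of 7 distal convoluted tubule markers, 1 was higher and 3 lower at an unadjusted p under 0.05, against 2.76% and 3.59% of all genes. By edgeR 0 passed an FDR of 0.05. *Trpm6*, the magnesium channel, was at 17.7 to 23.8 CPM in controls and 9.53 to 16.3 CPM in mutants, *Tmem52b* was at 224.8 to 335.8 and 169.1 to 216.4 CPM, and *Emx1* was at 48.0 to 56.4 and 33.4 to 43.7 CPM, with no overlap in any of the 3, against 4.03% of all genes (log2 fold changes −0.72, −0.52 and −0.45; edgeR FDR 0.434, 0.509 and 0.351). In the absence of controls 3 and 4 they were at −0.54, −0.30 and −0.38. By DESeq2 with all kidneys, *Emx1* (FDR 0.0339) and *Trpm6* (FDR 0.0499) passed an FDR of 0.05, and *Tmem52b* (FDR 0.0931) did not. With controls 3 and 4 left out, none of the 3 passed by DESeq2 (FDR 0.336, 0.416 and 0.385 in that order). *Trpv5*, the calcium channel, was the marker that was higher, at 14.6 to 22.7 CPM in controls and 19.3 to 27.7 CPM in mutants (log2 fold change 0.39). The study measured *Trpv5* and *Calb1* by RT-qPCR as genes induced by active vitamin D, and reported changes of both in kidney-specific mutants. *Slc12a3*, the NCC gene of the same segment, had overlapping groups. The list's summed level was 829 to 1104 CPM in controls and 741 to 1056 CPM in mutants, and its part in the *Slc12a3* values was not tested. *Calb1*, the most abundant of the list, gave 380.8 to 591.8 CPM of this in controls and 448.0 to 668.9 CPM in mutants. The sum is therefore not a measure of the segment alone.

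The marker list of the thick ascending limb, beside which *Slc12a1* and *Kcnj1* are read, summed to 3326 to 3921 CPM in controls and 3288 to 4415 CPM in mutants. At an unadjusted p under 0.05, 1 of 7 tested markers was higher and 0 lower, against 2.76% and 3.59% of all genes. Principal cell markers, beside which ENaC is read, summed to 349 to 743 CPM in controls and 489 to 902 CPM in mutants. Of the 7 principal cell markers 5 were higher, against 49.2% of all genes, and 0 of the 7 were at an unadjusted p under 0.05, against 6.36%. *Aqp2* was at 258.4, 163.2, 403.1 and 262.3 CPM in controls 1 to 4 and 277.2, 393.4, 563.2 and 436.8 CPM in mutants 1 to 4 (log2 fold change 0.62, edgeR FDR 0.781). *Scnn1a* and *Aqp2* thus had log2 fold changes of opposite sign, neither past the FDR.

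Intercalated cell markers, of the acid- and base-secreting cells of the collecting duct, had 6 of 6 log2 fold changes below 0, where 49.2% of all genes were above 0. At an unadjusted p under 0.05, 4 were lower, against 3.59% of all genes, and 0 passed an FDR of 0.05. *Insrr*, the alkali-sensing receptor, was at 37.0 to 46.4 CPM in controls and 28.3 to 32.1 CPM in mutants (log2 fold change −0.44, edgeR FDR 0.414). The proton pump subunits *Atp6v0d2* (−0.30) and *Atp6v1g3* (−0.29) also had groups that did not overlap, against 4.03% of all genes. Without controls 3 and 4, 2 of 6 were above 0, against 51.7% of all genes, and the median was −0.18. At an unadjusted p under 0.05, 1 was then lower (*Insrr*, −0.29), against 4.74% of all genes. The part of this list in the *Scnn1a* values was not tested.

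In the 6 kidneys that held Y-linked reads, the direction of several transport genes was different, and 8 of 10 were higher in mutants, against 51.7% of all genes, with a median log2 fold change of 0.10. None of the 10 passed an FDR of 0.05, where 0.143% of all genes did, and 2, *Slc12a1* and *Kcnj1*, were at an unadjusted p under 0.05, against 11.1% of all genes (6.4% in their direction). All mutants lay above both controls for 2 genes, *Slc12a1* and *Scnn1b*, against 10.3% of all genes, and for 0 below them; without regard to direction, 21.8% of all genes had groups that did not overlap.

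*Slc12a1* had a log2 fold change of 0.50 (SE 0.193, 95% CI 0.0639 to 0.944; edgeR FDR 0.398) among these kidneys, a difference of 41.8%, with controls 1 and 2 at 630.1 and 527.0 CPM and the lowest mutant at 634.6 CPM. The exact permutation test gave p = 0.2, where the smallest p that 15 assignments allow is 0.0667. *Kcnj1*, expressed in the same segment, had a log2 fold change of 0.24 (95% CI 0.00468 to 0.474; edgeR FDR 0.438), and mutant 3 lay below control 1. *Sgk1* was at 0.69 (95% CI −0.165 to 1.54; edgeR FDR 0.527) and *Scnn1a* at −0.13 (95% CI −0.359 to 0.0914; edgeR FDR 0.65), while *Slc12a3* was at −0.03 (95% CI −0.451 to 0.384; edgeR FDR 0.957).

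Most markers of the thick ascending limb and of principal cells were also higher in mutants among the 6 kidneys. Of 7 tested thick ascending limb markers 6 were higher, against 51.7% of all genes. At an unadjusted p under 0.05, 4 were higher, against 6.4% of all genes, and 0 of the 7 markers passed an FDR of 0.05. Their median log2 fold change was 0.30. *Cldn16* and *Cldn19*, the claudins that let magnesium and calcium pass between cells, were at 0.91 and 0.52. *Umod* was at 0.08, and *Cldn10*, another claudin of the list, was at −0.24 with all mutants below both controls. Groups did not overlap, in either direction, for 21.8% of all genes. The list summed to 3599 and 3326 CPM in controls 1 and 2 and to 3288 to 4415 CPM in mutants, and its part in the *Slc12a1* and *Kcnj1* values was not tested. Of 7 principal cell markers 7 were higher, against 51.7% of all genes. At an unadjusted p under 0.05 there were 4, against 6.4% of all genes, and 0 passed an FDR of 0.05. Their median was 0.47, with *Aqp2* at 1.0. They summed to 457 and 349 CPM in controls 1 and 2 and to 489 to 902 CPM in mutants, and their part in the ENaC and *Kcnj1* values was not tested. Proximal tubule markers summed to 12151 and 13390 CPM in controls 1 and 2 and to 9376 to 10764 CPM in mutants. Of these 7 markers 2 were higher, against 51.7% of all genes, with a median of −0.18. At an unadjusted p under 0.05 there were 0 higher and 1 lower, against 6.4% and 4.74% of all genes. *Slc34a1*, the most abundant, was at −0.52 (edgeR FDR 0.241), and passed an FDR of 0.05 under 2 alternatives. The part of this list in the transport gene values was not tested.

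**Figure D5:**
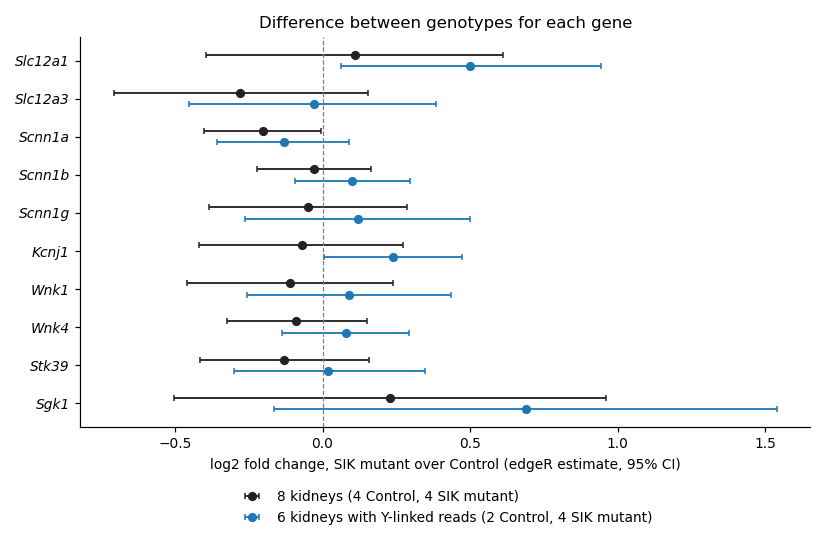
Log2 fold change of SIK mutants over controls with 95% confidence intervals, in 8 kidneys (black) and in the 6 that held Y-linked reads (blue). *Scnn1b*, *Scnn1g*, *Kcnj1*, *Wnk1*, *Wnk4* and *Stk39* are below 0 in black and above 0 in blue, and each of their black intervals spans 0.

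Direction thus changed for 6 of the 10 genes when controls 3 and 4 were left out. These controls were both above controls 1 and 2 for 9 of 10 transport genes, against 30.0% of all genes. The same held for 7 of the 8 thick ascending limb markers listed, *Cldn10* being the exception. It also held for 7 of 7 principal cell markers, 5 of 6 intercalated cell markers and 3 of 7 distal convoluted tubule markers. Controls 3 and 4 were both above all 4 mutants for 5 of 10 transport genes, namely *Slc12a3*, *Scnn1a*, *Scnn1b*, *Kcnj1* and *Wnk4*, against 14.0% of all genes. The mean of controls 3 and 4 over that of controls 1 and 2 ranged from 1.08 for *Scnn1a* to 1.61 for *Slc12a1* and 1.72 for *Sgk1*. These are descriptions of single kidneys and carry no test. Adipocyte markers summed to 22.3 to 219 CPM in controls and 166 to 262 CPM in mutants. *Adipoq*, which defines adipocytes, was at 0, 0.79, 18.8 and 5.95 CPM in controls 1 to 4 and at 13.8 to 21.6 CPM in mutants, so adipose RNA and genotype cannot be told apart among the 6 kidneys.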

How the data were processed

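RNA-Seq of 8 whole mouse kidneys (4 controls, 4 SIK mutants) was read from 1 gene table per kidney. The members and gene lists were chosen with earlier results of these data known. The expected counts and TPM values deposited by the authors came from RSEM 1.3.0. The submitters' processing notes list it with STAR 2.7.2b, mm10, FastQC and DESeq2. Replicates were not pooled. RSEM's gene lengths, deposited beside the counts, are another kind of value. Symbols and coordinates were taken from GENCODE M21 (GRCm38), which matched 55141 of 55401 identifiers without version.

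Expected counts were rounded and tested in edgeR 4.0.16 (R 4.3.3) by its quasi-likelihood F test, with TMM factors, filterByExpr and Benjamini-Hochberg adjustment over 14326 genes. CPM values are TMM-normalised. The study's text gives unpaired tests for 2 groups and no RNA-Seq design was found in it, so no block was used. Single values and TPM ratios were compared by exact permutation. P-values measure the spread between mice. Named genes were all 10 transport genes; from the 3 wider lists, genes with an unadjusted p under 0.05, groups that did not overlap or the 4 largest fold changes of a list at 1 CPM or more; and of the markers, those without overlap and the most abundant of each segment list. *Adipoq*, *Nr3c2*, *Trpv5*, *Cldn10*, *Cldn16*, *Cldn19* and the BK subunits were added after their values were seen. Scripts were tested on simulated data. No kidney was a duplicate of another of its group (chi-square per degree of freedom of 9.06 to 49.5). Alternatives were RLE and upper-quartile factors, a count filter left out or raised to a mean of 50, DESeq2 1.42.0, limma-trend 3.58.1 on log2(TPM + 1) and log2(TPM + 0.1), a replicate block, a Y-linked covariate, 6 kidneys, and each kidney left out.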

Additional observations from a re-analysis of the deposited data

Results flagged for a closer look

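*Per1* in control 4 was the sole value that lay far from the others of its group, out of 76 groups of 4 kidneys checked, where chance gives about 1 in 20. It was at 17.0 CPM, with the other controls at 8.81 to 10.1 CPM, so that the gap to its nearest neighbour was 0.836 of the range of the group, past Dixon's critical value at the 95% level.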

How the results depend on the processing

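None of the 10 transport genes passed an FDR of 0.05 under any of the 20 alternatives. At an unadjusted p under 0.05 there was 1 gene in the reported fit, 0 with RLE factors, no filter, limma-trend or the replicate block, and 2 (*Slc12a1* and *Kcnj1*) with the Y-linked covariate or 6 kidneys, by edgeR or DESeq2; leaving out a kidney gave 0 to 1. The median log2 fold change of the 10, −0.08, was 0.09 with the Y-linked covariate, 0.10 with 6 kidneys and 0.09 with DESeq2 in either. Genes without overlap numbered 2 with 6 kidneys and 0 to 1 without a kidney.

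With the Y-linked covariate, 6 kidneys, DESeq2 with 6 kidneys and DESeq2 with the covariate, in that order, log2 fold changes changed sign to 0.10, 0.10, 0.10 and 0.10 for *Scnn1b*, 0.10, 0.12, 0.12 and 0.11 for *Scnn1g*, 0.23, 0.24, 0.24 and 0.24 for *Kcnj1*, 0.08, 0.09, 0.09 and 0.08 for *Wnk1*, 0.07, 0.08, 0.07 and 0.08 for *Wnk4*, and 0.01, 0.02, 0.02 and 0.02 for *Stk39*. Those of *Ppp1r1a* (0.06 in all 4), *Per1* (0.01, 0.03, 0.03, 0.02), *Kcnk1* (0.61, 0.59, 0.59, 0.62), *Umod* (0.07, 0.08, 0.08, 0.07) and *Slc4a1* (0.26, 0.26, 0.25, 0.27) did so too. On TPM, limma-trend with either pseudocount turned *Scnn1b* to 0.08, *Scnn1g* to 0.05, *Kcnj1* to 0.06, *Umod* to 0.09 and *Slc4a1* to 0.01, where the median of all genes moved to 0.09 (pseudocount 1) and 0.11 (0.1). Causes were not tested. With a kidney left out, ranges that crossed 0 were −0.05 to 0.28 (*Slc12a1*), −0.08 to 0.02 (*Scnn1b*), −0.12 to 0.07 (*Scnn1g*), −0.18 to 0.02 (*Kcnj1*), −0.21 to 0.01 (*Wnk1*), −0.07 to 0.42 (*Sgk1*), −0.55 to 0.07 (*Per1*), −0.12 to 0.05 (*Umod*), −0.0 to 0.24 (*Calb1*), −0.28 to 0.07 (*Slc4a1*) and −0.28 to 0.01 (*Wnk4* to *Wnk1* ratio).

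Over all genes, edgeR called 0; the count was 9 with no filter, 67 with DESeq2, 4 and 5 with limma-trend (pseudocounts 1 and 0.1), 15 with the Y-linked covariate, 21 with 6 kidneys, 188 and 198 with DESeq2 in 6 kidneys and with the covariate, and 0 to 1 without a kidney. Genes at an unadjusted p under 0.05 numbered 911, and 1727 with the covariate, 1640 with 6 kidneys, 1368 with DESeq2 and the covariate, and 593 to 1181 without a kidney (593 without mutant 2). Of the 3 wider lists, 0 genes were called, and 1, *Kcnk1*, by DESeq2 with 6 kidneys (FDR 0.0104) or the covariate (0.00258); 4 were at an unadjusted p under 0.05, 7 with DESeq2, 8 with 6 kidneys and 2 to 6 without a kidney (2 without mutant 2).

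Same-numbered kidneys did not deviate together (correlations −0.193, 0.043, 0.063 and −0.344), so the replicate numbers were not taken as pairs; with the replicate block, edgeR called 0 genes, 657 were at an unadjusted p under 0.05, and the log2 fold change of *Scnn1a* was −0.20 (p = 0.0900). In the ratio of *Slc12a3* to *Slc12a1*, the exact sign-flip test of the block gave p = 0.375. Each transport gene had between 290 and 12037 expected counts in every kidney, so each was read well above the limit of 3 counts. With 2 controls, the 6-kidney comparison rests on few mice, and the covariate shares 34.5% of the genotype term's variation.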
